A study of Mus musculus with 68 samples.

Results

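The genes described here copy the genome: 43 genes of DNA replication licensing and the replication fork, chosen by name, out of 24941 gene names in the 8 expression tables. All 43 were listed once in every table. They were followed through mouse oocytes and embryos of Ezhip genotypes, in a study that asked how losing Ezhip, an inhibitor of the histone methyltransferase complex PRC2, changes expression. The Smart-seq2 protocol, which copies whole polyadenylated transcripts from very little material, was used. The unit is FPKM, fragments per kilobase of gene length and scaled to library size, so levels are per length and can be set side by side between genes.

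The groups were fully grown oocytes (FGO; Ezhip KO n = 3, Ezhip Het n = 2, WT n = 2), 1-cell embryos (labelled PN5; mKO, mHet and WT, n = 2 each), late 2-cell embryos (n = 2 each) and 8-cell embryos (mKO n = 3, mHet n = 1, WT n = 2). E3.5 embryos came in a first table with 2 and a second with 5 libraries per genotype. The E4.25 table held 4 mKO and 4 WT libraries and 2 identical mHet libraries, which were counted as 1. At E6.5 the extraembryonic ectoderm (ExE), a trophoblast tissue, and the epiblast (Epi), which forms the embryo proper, had 2 libraries per genotype each. The Epi columns carry other replicate numbers than the sample titles, so Epi libraries are called a and b here. Whether ExE and Epi libraries stem from the same embryos is unstated. The study's design text sets Ezhip knockout (KO) oocytes and maternal knockout (mKO) embryos against wild type. The name mHet is not spelled out. Strain, age, the promoter of any Cre and how many cells were pooled are unstated. Whether replicates stem from separate animals is unstated, and a p-value here reflects only library-to-library spread, which may be technical. Reads of Ezhip (listed as AU022751) averaged 0.0973 ± 0.0892 FPKM in KO oocytes (SD, n = 3), against 421 ± 176 FPKM in WT oocytes (SD, n = 2).

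Replication starts with licensing and then firing. In licensing, the origin recognition complex (ORC) with CDC6 and CDT1 loads the MCM2-7 helicase onto DNA as an inactive double ring, and geminin (Gmnn) blocks CDT1 so that no origin is licensed again in the same cycle. In firing, the kinase CDC7 and the factors CDC45 and GINS turn MCM2-7 into the moving helicase, DNA polymerases alpha, delta and epsilon copy the strands around the sliding clamp PCNA, which RFC loads, RPA covers single-stranded DNA, and FEN1 and LIG1 join the lagging-strand fragments. The oocyte stores mRNA for the first division, and the embryo's own genome takes over in the mouse at about the late 2-cell stage.

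A few libraries stood apart. Rn45s, the ribosomal RNA precursor, took a median of 3.99% of summed FPKM over the 67 libraries used, but 11.7% to 68.6% at E4.25, with WT 3 highest, 9.19% to 69.5% in the second E3.5 table, with mKO 4 highest, 9.12% in mKO 1 and 21% in WT 1 of the first E3.5 table, 11.6% in ExE mHet 2 and 8.11% in ExE mKO 1. FPKM are shares of a library, so such a transcript lowers the values of all others. In E4.25 WT 3 only 14 of the 43 genes reached 1 FPKM, against 35 in E3.5 mKO 4 and 38 to 43 in the other libraries of both tables. Oocyte libraries formed 2 sets by their place in the sample list. KO 1, KO 2, Het 1 and WT 1 had 7316 to 8443 genes at 1 FPKM or more and summed members of 981 to 1272 FPKM, and KO 3, Het 2 and WT 2 had 9432 to 9801 genes and 1684 to 1817 FPKM. In the first E3.5 table the mKO libraries held 0.101 to 0.152 FPKM of Y-linked transcripts and the mHet and WT libraries 43.5 to 84.7 FPKM, so sex and genotype cannot be told apart there. At E6.5 the mHet libraries held at most 0.170 FPKM in Epi and 0.156 FPKM in ExE. WT libraries reached 90.7 FPKM in Epi and 34.6 FPKM in ExE, and mKO libraries 82.2 and 44.1 FPKM. Each of these WT and mKO groups also held a library under 0.2 FPKM. Sex and genotype are thus partly mixed in the E6.5 mHet comparisons. Markers were read for the oocyte and E6.5 labels. In every FGO group 7 of 7 oocyte markers exceeded 1 FPKM in some library, as they did in 1-cell and late 2-cell groups. They summed to 6300 to 14150 FPKM in FGO and 361 to 667 FPKM in late 2-cell libraries. The 6 ExE markers summed to 224 to 320 FPKM in ExE libraries and 8.67 to 53.3 FPKM in Epi libraries.

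**Figure D1:**
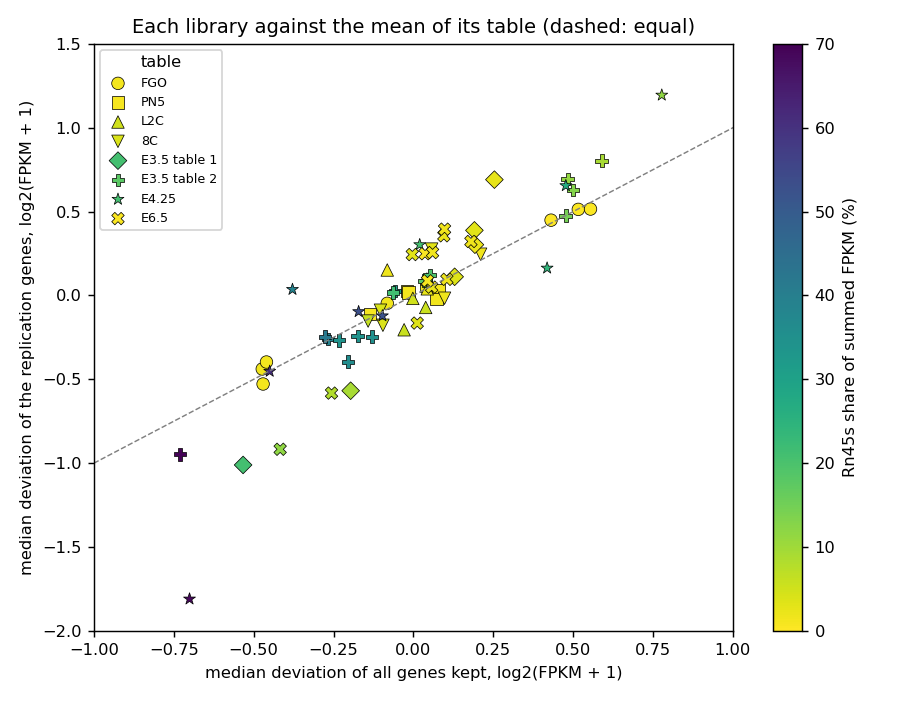
Each point is one library: the x axis is the median over all kept genes, and the y axis the median over the 43 replication genes, of the deviation from the mean of its table on the log2(FPKM + 1) scale; the shape gives the table and the colour the Rn45s share. E4.25 WT 3 is lowest for the replication genes, at -1.81 beside -0.70 for all genes, and most libraries low for all genes are also low for replication genes.

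The oocyte and 1-cell embryo held large amounts of a few licensing mRNAs in polyadenylated form beside little of others. Stored mRNA in another form would be missed by Smart-seq2, so a change of form and a change of amount cannot be told apart. The tables were normalized separately, so levels from different tables are a description with no test; fewer cells and less RNA per cell cannot be told apart in such bulk libraries. Orc5, a subunit of ORC, measured 395, 330 and 407 FPKM in KO oocytes, 309 and 335 FPKM in Het oocytes and 237 and 367 FPKM in WT oocytes. In 1-cell embryos Orc5 measured 407 and 336 FPKM in mKO, 412 and 315 FPKM in mHet and 452 and 292 FPKM in WT. The genotypes overlapped at both stages. In late 2-cell embryos all 6 libraries lay between 12.3 and 26.6 FPKM, and no library after that reached 50 FPKM; the WT median at the late 2-cell stage was 16.5-fold below that at the 1-cell stage. Orc6, another ORC subunit, was highest in 1-cell embryos: its WT medians were 104 FPKM in oocytes, 276 FPKM in 1-cell, 145 FPKM in late 2-cell and 115 FPKM in 8-cell embryos, and 107 FPKM in the E6.5 epiblast. Orc3, another core subunit, was the scarce one, with a range over all genotypes of 0.941 to 2.77 FPKM in late 2-cell embryos and 17.8 to 25.1 FPKM in the epiblast.

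Geminin mRNA was highest at the late 2-cell stage, and so was its median ratio to the mRNA of its target CDT1. WT medians of Gmnn were 77.7 FPKM in oocytes, 178 in 1-cell, 396 in late 2-cell and 213 in 8-cell embryos, 100.3 and 51.8 FPKM in the first and second E3.5 tables, 14.2 FPKM at E4.25, 192 FPKM in the ExE and 150.1 FPKM in the epiblast. Those of Cdt1 were 23.4, 23.2, 36.4 and 46.0 FPKM in oocytes, 1-cell, late 2-cell and 8-cell embryos. Within one library their ratio does not depend on the scaling of the table. The ratio of Gmnn to Cdt1 had a median of 2.04 in the 7 oocyte libraries (1.33 to 2.04 in the set with fewer genes and 3.06 to 4.53 in the other), 9.28 in 1-cell embryos (5.48 to 21.9), 10.7 in late 2-cell embryos (9.51 to 12.0) and 2.94 in 8-cell embryos (2.19 to 7.48). No late 2-cell library overlapped an oocyte or 8-cell library in this ratio. At E6.5 the median ratio in the ExE was 4.61 in mKO, 3.61 in mHet and 6.32 in WT. In the epiblast it was 3.17 in mKO, 3.54 in mHet and 7.85 in WT (5.64 and 10.1), and the highest WT value lay in the late 2-cell range. In both tissues the WT libraries were above all mKO and mHet libraries; the Cdt1 values behind this are given with the genotype comparison at E6.5. Cdc6, which recruits the helicase loader, stayed between 3.69 and 10.8 FPKM up to the late 2-cell stage and lay between 18.8 and 27.8 FPKM in 8-cell embryos.

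The helicase genes were modest before implantation and high at E6.5. Mcm6 had the highest mean of the 6 subunits over all libraries and ranged from 15.4 to 34.3 FPKM in oocytes, 25.8 to 51.9 FPKM in late 2-cell and 55.6 to 96.9 FPKM in 8-cell embryos, and 88.6 to 205 FPKM in the epiblast. Mcm3, the lowest by that mean, ranged from 4.04 to 9.33 FPKM in oocytes and from 82.2 to 131 FPKM in the epiblast. Mcm4 ranged from 37.1 to 44.8 FPKM in 1-cell embryos and from 2.87 to 8.49 FPKM in late 2-cell embryos, and the stages did not overlap. Mcm10, which helps the helicase start, and Mcm8, an MCM paralog that acts in recombination, had lower means over all libraries than any MCM2-7 gene. Mcm10 was not lower at every stage: its median over all genotypes was 21.7 FPKM in 1-cell embryos, beside 7.22 FPKM for Mcm3, and its highest value, 36.3 FPKM, was in the first E3.5 table. Mcm8 never exceeded 11.3 FPKM in any library.

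Among firing factors, Cdc45, which binds MCM2-7 in the active helicase, was highest at the late 2-cell stage, at 73.9 to 98.9 FPKM in 6 libraries, and lay at 37.2 to 48.5 FPKM in 1-cell embryos. Gins3, the GINS subunit of lowest mean over all libraries, was also highest there, with 15.9 to 24.1 FPKM at the late 2-cell stage and 4.89 to 6.15 FPKM at the 1-cell stage. Gins4 held a WT median of 67.2 FPKM in oocytes and 66.8 FPKM in the epiblast. The primase subunit Prim1 ranged from 31.9 to 49.6 FPKM in late 2-cell embryos and 10.0 to 20.6 FPKM in 1-cell embryos. The catalytic subunit of polymerase alpha, Pola1, the only X-linked member, varied less, with WT medians between 4.54 FPKM at E4.25 and 15.5 FPKM at the 8-cell stage, and its partner Pola2 had its highest WT median, 31.1 FPKM, in the epiblast.

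The subunits of polymerase delta differed widely in level. Pold3, an accessory subunit, ranged from 92.6 to 109 FPKM in 1-cell embryos, when Pold1, the catalytic subunit, lay between 0 and 0.0822 FPKM. Pold1 stayed at or under 1.05 FPKM in every oocyte, 1-cell and late 2-cell library and was at 3.02 to 4.80 FPKM in 8-cell embryos and 9.40 to 14.5 FPKM in the epiblast. The catalytic subunit of polymerase epsilon, Pole, was likewise low in 1-cell embryos, at 0.314 to 0.878 FPKM. Smart-seq2 depth is unknown from FPKM, so values near 0 carry no counting limit.

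Pcna, Fen1 and Lig1 had their highest WT medians in the E6.5 epiblast. Pcna had a WT median of 77.7 FPKM in oocytes, 154 FPKM in 1-cell, 81.5 FPKM in late 2-cell and 90.6 FPKM in 8-cell embryos, and 479 FPKM in the epiblast. In the clamp loader, Rfc2 lay at 1.20 to 3.27 FPKM in 1-cell embryos, when its partner Rfc5 lay at 27.4 to 31.2 FPKM, and Rfc1, the largest subunit, at 22.7 to 34.9 FPKM. Rpa3, the smallest RPA subunit, peaked in 1-cell embryos with a WT median of 184 FPKM, and Rpa1, the largest, ranged from 19.4 to 23.8 FPKM there and from 2.68 to 6.14 FPKM in late 2-cell embryos. Fen1, the flap nuclease, ranged from 1.21 to 3.39 FPKM in 1-cell embryos and 40.7 to 51.0 FPKM in the epiblast. Lig1, the ligase of the lagging strand, had its low at the late 2-cell stage, with 0.495 to 2.04 FPKM, and reached 21.8 to 33.2 FPKM in the epiblast.

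Over the 43 genes, the highest WT median fell at E6.5 for 29 (20 in the epiblast, 9 in the ExE), in 1-cell embryos for 7, in late 2-cell embryos for 3, in 8-cell embryos for 3 and in oocytes for 1. The lowest WT median fell at E4.25 for 30 genes, in a table whose WT libraries held 21% to 68.6% Rn45s. By percentile rank within each library, the highest WT median fell at E6.5 for 25 genes. The lowest by rank fell at E4.25 for 15, in 1-cell embryos for 12, in late 2-cell embryos for 12 and in 8-cell embryos for 4. Tables list 14055 to 24056 genes, which also moves ranks. The same counts were not made over all genes, so whether they are particular to the members is unknown.

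**Figure D2:**
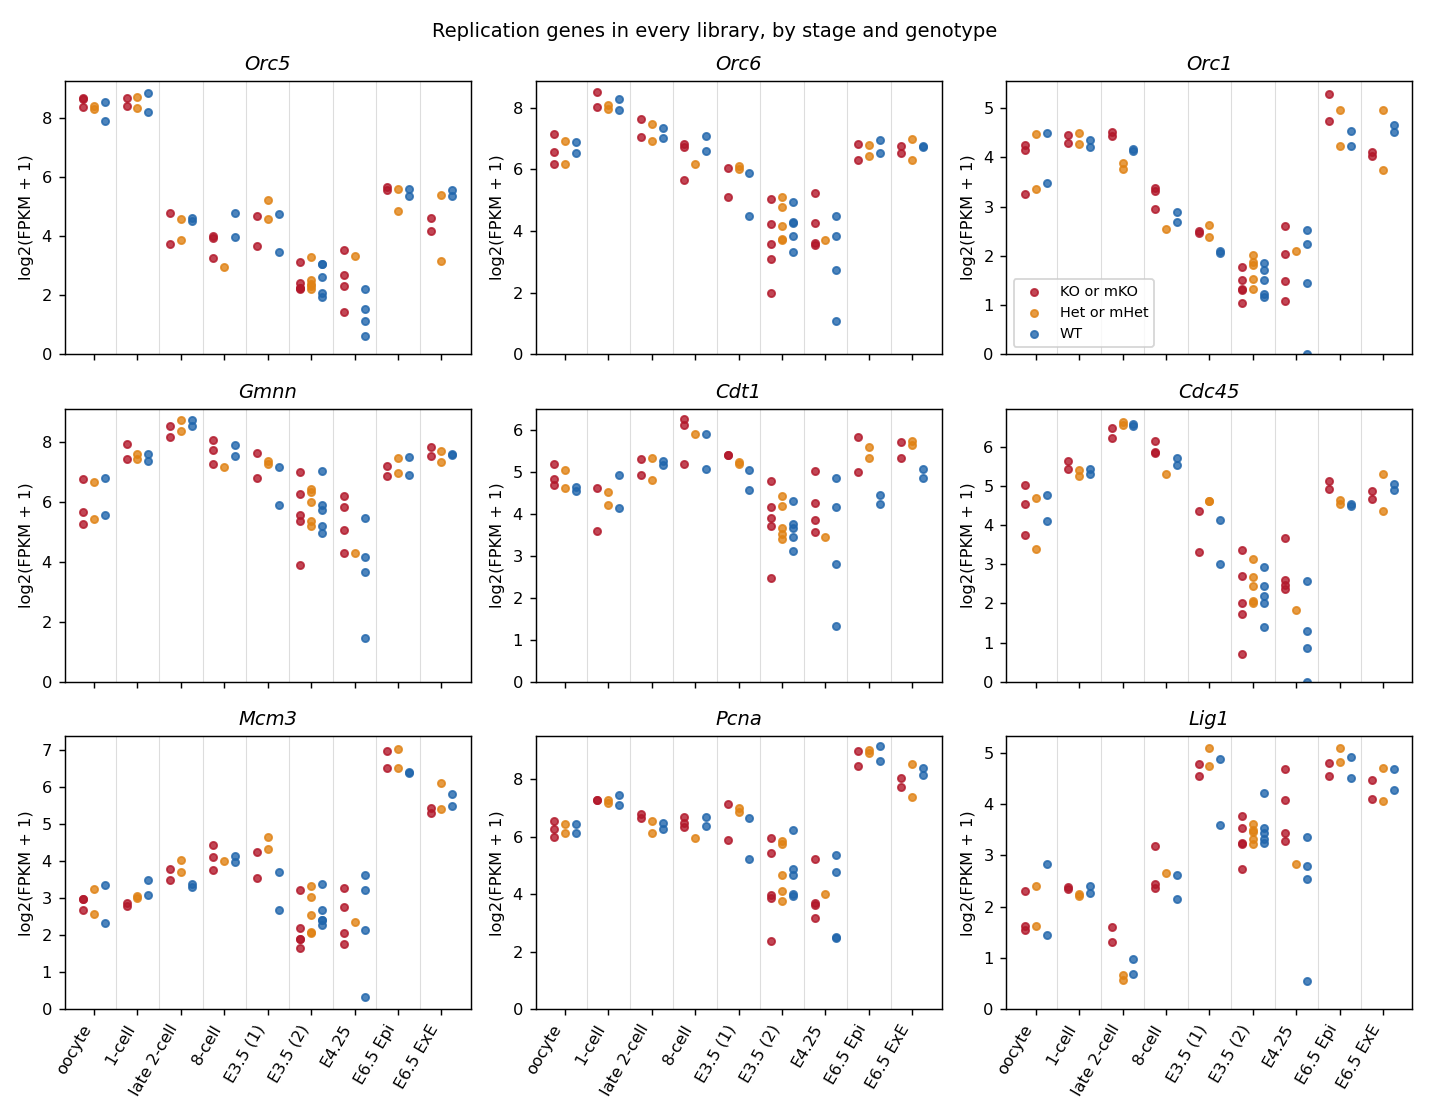
Points are libraries, placed by stage on the x axis and within a stage from left to right as KO or mKO, Het or mHet, and WT; the y axis is log2(FPKM + 1). Orc5 is lower from the late 2-cell stage on, Gmnn and Cdc45 are highest at the late 2-cell stage, and Mcm3 and Pcna are highest at E6.5. Tables were normalized separately.

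Subunits of ORC and of MCM2-7 were less equal in mRNA early than at E6.5. The ratio of the highest to the lowest subunit in a library is free of scaling. For ORC its median was 54.4 in oocytes, 46.6 in 1-cell, 101 in late 2-cell and 16.1 in 8-cell embryos, 13.1 and 8.21 in the E3.5 tables, 6.78 at E4.25, 4.57 in the epiblast and 5.65 in the ExE. Orc5 was the highest subunit in all 7 oocyte and all 6 1-cell libraries, Orc6 in all 6 late 2-cell libraries, and Orc3 the lowest in all of these. For MCM2-7 the median ratio was 3.97 in oocytes, 6.51 in 1-cell, 8.20 in late 2-cell and 4.01 in 8-cell embryos. It was 2.55 and 2.76 in the E3.5 tables, 2.75 at E4.25, 1.88 in the epiblast and 1.86 in the ExE. The 6 epiblast libraries spanned 1.65 to 2.01, and none overlapped the oocyte range of 3.72 to 4.48. By median, the clamp loader was most uneven in 1-cell embryos, with a median of 26.5 and a range of 17.7 to 46.8, and had a median of 3.43 in late 2-cell embryos. Not all complexes were most even at E6.5. GINS medians were 13.7 in oocytes, 2.95 in late 2-cell embryos, 9.38 in Epi and 9.79 in ExE. Those of primase-polymerase alpha were 2.64 in 1-cell and 7.95 in late 2-cell embryos, 4.81 in Epi and 5.07 in ExE. RPA medians were 2.43 in oocytes, 22.2 in late 2-cell embryos, 1.51 in Epi and 4.05 in ExE.

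In late 2-cell embryos the ORC ratio was 139 and 182 in mKO, 85.0 and 117 in mHet and 55.5 and 58.6 in WT, with no overlap between genotypes. The low subunit behind it, Orc3, is described with the genotype comparison at that stage.

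**Figure D3:**
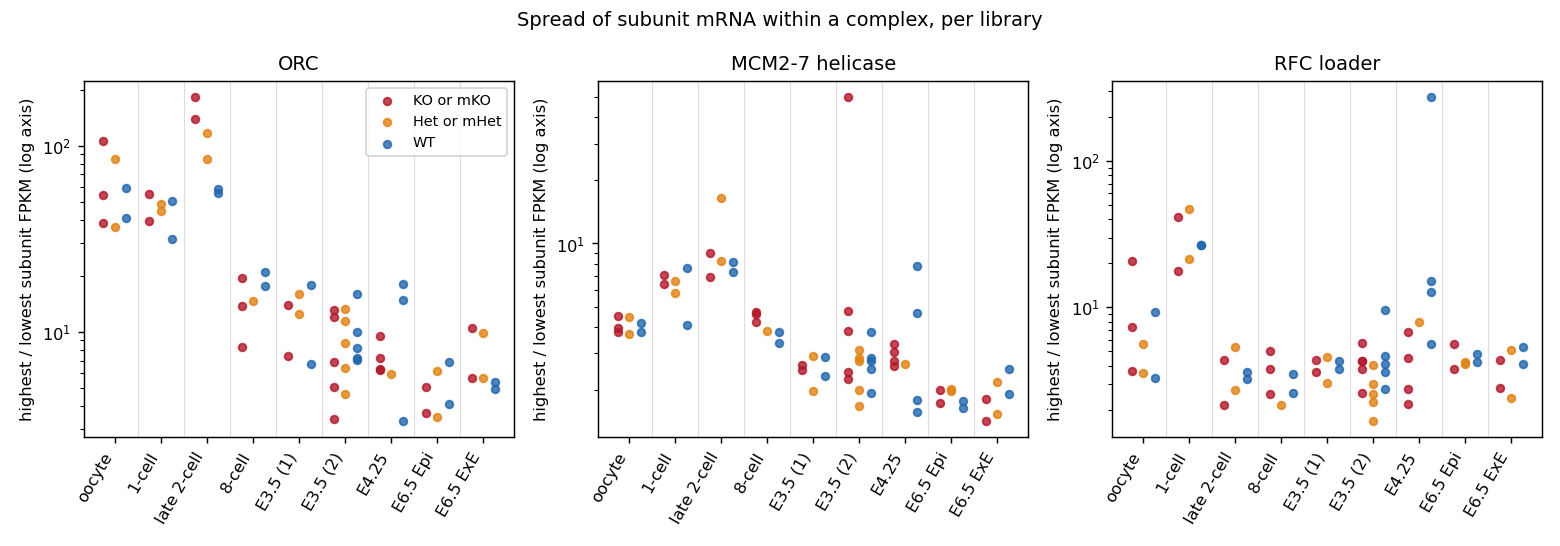
For 3 complexes, each point is the FPKM of the highest over the lowest subunit in one library (log axis), by stage on the x axis and genotype in colour. ORC is most uneven up to the late 2-cell stage, RFC in 1-cell embryos, and MCM2-7 is most even at E6.5; single high points at E3.5 and E4.25 are libraries with a subunit near 0.

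Between Ezhip genotypes, members passed the test at E4.25 and at no other stage. A gene was tested when 2 or more libraries of its table reached 1 FPKM, with limma on log2(FPKM + 1), with Benjamini-Hochberg adjustment over all genes kept and a threshold of 0.05, so every log2 change below is on that scale. Of the 43 genes, Pold1 did not pass this filter in oocytes, 1-cell and late 2-cell embryos, nor Pole in 1-cell embryos. In KO against WT oocytes 0 of 42 genes passed by limma, beside 0.0102% of all genes. An unadjusted p under 0.05 was found for 0 members, beside 0.112% of all genes. The 2 sets of oocyte libraries were pooled in this fit. The smallest p was that of Orc5, at 0.301 (log2 change 0.35 ± 0.33 SE), with values given above; Mcm7 (0.67 ± 0.67), Rpa1 (0.47 ± 0.57) and Orc4 (-0.37 ± 0.60) came next. All 4 overlapped between KO and WT oocytes. In 1-cell embryos 0 of 41 passed by limma in mKO against WT, beside 0.0116% of all genes. Of the 41, 0 had an unadjusted p under 0.05, beside 2.49% of all genes. There Mcm8 measured 6.48 and 5.41 FPKM in mKO and 4.44 and 3.49 FPKM in WT, and Mcm3 5.97 and 6.31 FPKM in mKO and 7.51 and 10.2 FPKM in WT. Neither overlapped, yet their adjusted p was 1 by limma. With 2 libraries against 2, such separation was common: 3 members were higher and 7 lower in mKO without overlap. In mKO against WT it was 10 higher and 11 lower in late 2-cell embryos, 17 and 10 in Epi and 1 and 33 in ExE. The share over all genes was not counted, so a lack of overlap is no result about a member. Rfc3 (-0.35 ± 0.19) and Pola1 (0.32 ± 0.20) were the next by p.

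At the late 2-cell stage 0 of 42 genes passed in mKO against WT by limma, beside 0.00969% of all genes. The unadjusted p was under 0.05 for 3 genes, all lower in mKO, a share near the 7.56% of all genes. Gins4 measured 28.0 and 31.6 FPKM in mKO, 46.2 and 59.3 FPKM in mHet and 44.8 and 51.3 FPKM in WT (mKO against WT log2 change -0.67 ± 0.24 SE, limma adjusted p = 0.571). Orc3 measured 0.941 and 1.10 FPKM in mKO, 1.40 and 1.52 FPKM in mHet and 2.31 and 2.77 FPKM in WT (-0.81 ± 0.31, limma adjusted p = 0.599). Both mKO libraries lay under all others for each of these genes. Mcm8 measured 1.04 and 0.681 FPKM in mKO and 2.38 and 2.05 FPKM in WT (-0.79 ± 0.31), and Rfc5 17.5 and 17.7 FPKM in mKO and 25.3 and 24.4 FPKM in WT (-0.48 ± 0.23).

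In 8-cell embryos 0 of 43 genes passed by limma (0.012% of all genes) and 0 had an unadjusted p under 0.05 (4.01% of all genes). Pola2 was nearest, with 11.7, 13.9 and 10.4 FPKM in mKO and 5.07 and 9.16 FPKM in WT (log2 change 0.72 ± 0.35 SE, limma adjusted p = 0.999), and Orc5 (-0.64 ± 0.39), Mcm2 (0.55 ± 0.40) and Orc1 (0.43 ± 0.33) followed. Only Pola2 and Orc1 among these did not overlap.

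Among libraries of the first E3.5 table, 0 of 43 genes passed in mKO against WT by limma (0.0407% of all genes). At an unadjusted p under 0.05 there were 0, beside 5.48% of all genes. Pola1 measured 12.3 and 14.3 FPKM in mKO, 7.43 and 7.93 FPKM in mHet and 8.33 and 5.30 FPKM in WT (log2 change 0.90 ± 0.41 SE, limma adjusted p = 0.949). The mKO libraries, which differ from the others in Y-linked transcripts, were above the others for this X-linked gene. mKO 1 and WT 1 held 9.12% and 21% Rn45s, and their members lay at a median log2 deviation of -0.57 and -1.01 from the table's mean, beside -0.20 and -0.53 for all genes. Pold1 (0.66 ± 0.35), Pold2 (1.06 ± 0.56) and Mcm5 (0.91 ± 0.65) had the next p-values. In the second table, with 5 libraries per genotype, 0 of 43 passed by limma (0.0539% of all genes) and 1 had an unadjusted p under 0.05, beside 5.76% of all genes. This was Cdc7, the kinase that fires origins, with a lowest, median and highest value of 1.55, 1.96 and 3.99 FPKM in mKO and 3.20, 3.82 and 4.40 FPKM in WT (-0.52 ± 0.22, limma adjusted p = 0.726). The genotypes overlapped. Orc3 (-0.49 ± 0.24), Mcm10 (-0.60 ± 0.30) and Pole (-0.38 ± 0.19) were next. Pola1, above WT in mKO in the first table, had a log2 change of -0.29 ± 0.33 in the second.

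At E4.25 genes passed. There 4 of 43 genes were higher in mKO than in WT and 0 lower, beside 14.6% of all genes called (14.3% higher). Gins1, a GINS subunit, measured 11.8, 13.2, 6.15 and 15.5 FPKM in mKO, 4.48 FPKM in the mHet library and 6.13, 0.899, 0 and 2.99 FPKM in WT (log2 change 2.16 ± 0.58 SE, limma adjusted p = 0.025). Every mKO value was above every WT value, the closest pair being 6.15 and 6.13 FPKM. Pole measured 2.38, 5.76, 2.74 and 4.34 FPKM in mKO and 1.69, 0.339, 0.0140 and 1.21 FPKM in WT (1.46 ± 0.42, limma adjusted p = 0.0326). Mcm10 measured 3.33, 10.3, 3.63 and 9.01 FPKM in mKO and 1.49, 1.39, 0 and 2.47 FPKM in WT (1.69 ± 0.49, limma adjusted p = 0.0329). Neither overlapped between mKO and WT. Pola1 measured 5.57, 17.3, 15.7 and 27.8 FPKM in mKO and 5.65, 4.40, 0.763 and 4.68 FPKM in WT (1.83 ± 0.59, limma adjusted p = 0.0494), and here mKO 1 lay within the WT range.

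The share of members called, 4 of 43, was below that of all genes, and the members' median log2 change of 0.89 lay beside 0.74 over all genes, and 42 of 43 changes were positive beside 86.2% of all genes. WT 3, which is listed at 0 for Gins1 and Mcm10, sat in the WT group; without it only Gins1 passed (limma adjusted p = 0.0479), 34 changes were positive and the median was 0.50 beside 0.66. With median ratio scaling, which takes out a shift common to all genes, 0 passed, 26 changes were positive and the median was 0.20 beside 0.06; with that scaling and without WT 3, 18 were positive and the median was -0.13 beside 0.10. Leaving out mKO 2 or mKO 4 left 0 calls, leaving out mKO 1 left 2, leaving out WT 2 left 1, which was none of the 4, and leaving out WT 1 or mKO 3 gave 7. In these fits the share of all genes called was 5.1%, 3.45%, 6.72%, 5.66%, 18.9% and 20.3%, in the same order, and 11.6% without WT 3. Some marker sums differed between the groups and others overlapped. The 4 inner cell mass and epiblast markers, each above 1 FPKM in some library of both groups, summed to 20.3 to 87.1 FPKM in mKO and 4.67 to 17.0 FPKM in WT, the primitive and visceral endoderm markers to 38.8 to 51.3 FPKM in mKO and 4.23 to 27.1 FPKM in WT, the 5 trophectoderm markers to 263 to 1022 FPKM in mKO and 35.2 to 325 FPKM in WT, and Rn45s took 11.7% to 52.4% in mKO and 21% to 68.6% in WT. The ExE markers summed to 14.6 to 39.7 FPKM in mKO and 3.05 to 62.6 FPKM in WT. The E6.5 epiblast markers summed to 26.7 to 80.3 FPKM in mKO and 0.105 to 67.0 FPKM in WT. Both sums overlapped between the groups, as did those of the trophectoderm markers. The part of markers and Rn45s in the difference was not tested. Of 49 other replication genes that are not among the 43, 45 were tested, 5 were higher (Mybl2, Ticrr, Rnaseh2b, Cdca5 and Pole3) and 0 lower.

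**Figure D4:**
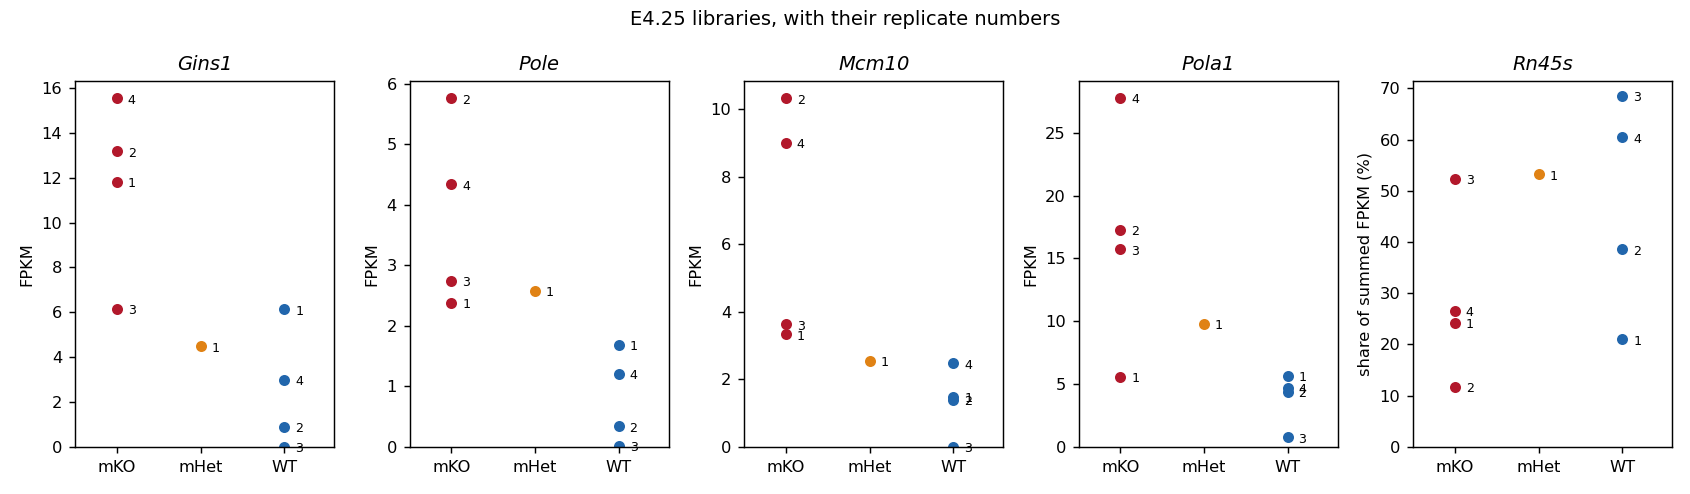
FPKM of the 4 called genes and the share of Rn45s in summed FPKM (%) in each E4.25 library, mKO left, the single mHet library in the middle and WT right, with replicate numbers beside the points. All mKO values lie above all WT values for Gins1, Pole and Mcm10, WT 3 is lowest for all 4 genes, and WT 3 also has the highest Rn45s share.

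Heterozygous libraries gave no call. In Het or mHet against WT 0 members passed by limma in the 7 comparisons made, beside 0% of all genes in 6 of them and 0.0272% in the epiblast. An unadjusted p under 0.05 was found for 5 members in the first E3.5 table and for 1 each in late 2-cell embryos, the epiblast and the ExE, beside 7.75%, 2.94%, 3.56% and 5.89% of all genes in these comparisons. The smallest p in the first E3.5 table was that of Mcm5, a helicase subunit, with 22.5 and 39.0 FPKM in mHet and 5.21 and 15.8 FPKM in WT (log2 change 1.58 ± 0.65 SE, limma adjusted p = 0.502). WT 1, with 21% Rn45s, was the lowest of the 6 libraries, and without WT 2 the count of calls was 14, all higher in mHet, beside 18.9% of all genes called. WT 1 is then the only WT library, and is assumed to vary like the other groups. In that comparison, 42 of 43 changes were positive, against 75.2% of all genes. In late 2-cell embryos Pola2 measured 5.85 and 8.87 FPKM in mHet and 4.32 and 3.67 FPKM in WT (0.72 ± 0.31, limma adjusted p = 1). Between KO or mKO and Het or mHet, 0 members passed in 7 comparisons by limma, beside 0% to 0.0872% of all genes (0.0108% in the second E3.5 table). The 4 members with an unadjusted p under 0.05 were all at the late 2-cell stage, where 9.37% of all genes had one, a share near theirs. They were Gins4 (-0.80 ± 0.24, limma adjusted p = 0.342), Orc1 (0.65 ± 0.23), Lig1 (0.83 ± 0.32) and Cdc7 (-0.82 ± 0.32).

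The members with the smallest p in the other comparisons with heterozygous libraries, as log2 changes that did not pass, were these. Against WT, they were Rpa1 (0.41 ± 0.62), Mcm7 (0.45 ± 0.74), Cdc45 (-0.39 ± 0.70) and Orc4 (-0.34 ± 0.66) in Het oocytes. In mHet 1-cell embryos they were Rfc4 (0.31 ± 0.23), Pold2 (-0.47 ± 0.39), Gins4 (-0.32 ± 0.26) and Pola2 (0.41 ± 0.36). The genotypes overlapped for all 4 genes in oocytes. After Pola2 in mHet late 2-cell embryos came Mcm3 (0.53 ± 0.26), Pold3 (0.43 ± 0.23) and Cdc7 (0.54 ± 0.32). After Mcm5 in the first E3.5 table came Mcm3 (1.29 ± 0.54), Cdc6 (1.48 ± 0.62) and Mcm4 (1.53 ± 0.65). In the second they were Pole (-0.32 ± 0.19), Pola1 (-0.47 ± 0.33), Rfc5 (0.49 ± 0.43) and Cdc7 (-0.24 ± 0.22). Of KO against Het oocytes they were Rfc4 (-0.67 ± 0.80), Pole2 (0.53 ± 0.77), Orc5 (0.22 ± 0.33) and Cdc45 (0.38 ± 0.64). Mcm8, Mcm10, Orc3 and Mcm6 led mKO against mHet in the second E3.5 table, with -0.46 ± 0.24, -0.55 ± 0.30, -0.41 ± 0.24 and -0.71 ± 0.43, and all overlapped. Of the first E3.5 data set they were Mcm10 (-1.13 ± 0.58), Mcm4 (-1.21 ± 0.65), Pola1 (0.72 ± 0.41) and Cdc6 (-1.07 ± 0.62). In 1-cell embryos they were Rfc4 (-0.49 ± 0.23), Rfc3 (-0.33 ± 0.19), Fen1 (-0.42 ± 0.34) and Cdc45 (0.20 ± 0.18).

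At E6.5 members passed the test between tissues. Over the 3 genotypes, 9 of 43 genes were lower in ExE than in Epi and 0 higher, beside 33.5% of all genes called (19.4% lower, 14.2% higher), so the members' count was near the share of all genes called lower and is no result particular to them. The members' median log2 change was -0.44 beside -0.11 over all genes, and 38 of 43 changes were negative. Gins2, a GINS subunit, differed most. It measured 15.5 and 20.9 FPKM in mKO, 26.9 and 16.2 FPKM in mHet and 24.7 and 31.7 FPKM in WT ExE, against 65.3 and 76.5 FPKM in mKO, 68.3 and 50.1 FPKM in mHet and 55.9 and 64.6 FPKM in WT Epi. The log2 change was -1.48 ± 0.21 SE (limma adjusted p = 0.000176), with means of 22.6 ± 6.35 FPKM in ExE and 63.4 ± 9.32 FPKM in Epi (SD, n = 6 each). All ExE libraries lay below all Epi libraries.

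The helicase genes Mcm3 and Mcm7 and the loader gene Rfc3 followed. Mcm3 measured 38.6 and 42.4 FPKM in mKO, 68.4 and 41.6 FPKM in mHet and 55.5 and 44.1 FPKM in WT ExE, against 124 and 91.3, 131 and 90.1, and 84.7 and 82.2 FPKM in mKO, mHet and WT Epi (-1.04 ± 0.21, limma adjusted p = 0.00236). Rfc3 measured 18.5 and 43.4 FPKM in mKO, 54.9 and 24.3 FPKM in mHet and 54.0 and 51.6 FPKM in WT ExE, against 77.7 and 74.2, 85.1 and 96.6, and 105 and 94.0 FPKM in mKO, mHet and WT Epi (-1.19 ± 0.26, limma adjusted p = 0.00381). Neither gene overlapped between tissues. Mcm7 averaged 77.2 ± 26.5 FPKM in ExE and 141 ± 20.4 FPKM in Epi (SD, n = 6 each; -0.92 ± 0.26, limma adjusted p = 0.0153), with mHet 1 of the ExE above WT a of the Epi.

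The other genes called had larger adjusted p-values. Pcna averaged 269 ± 74.7 FPKM in ExE and 467 ± 80.2 FPKM in Epi (-0.83 ± 0.23, limma adjusted p = 0.0155). Pola1 averaged 8.42 ± 1.47 FPKM in ExE and 13.1 ± 1.14 FPKM in Epi (-0.59 ± 0.18, limma adjusted p = 0.0257). These are the clamp and the polymerase that begins each strand. Rpa2 averaged 59.9 ± 18.8 FPKM in ExE and 97.1 ± 10.0 FPKM in Epi (-0.75 ± 0.24, limma adjusted p = 0.029). Pold3 averaged 19.7 ± 6.21 FPKM in ExE and 33.5 ± 7.56 FPKM in Epi (-0.77 ± 0.25, limma adjusted p = 0.034). Rpa1 averaged 34.6 ± 21.9 FPKM in ExE and 63.4 ± 21.7 FPKM in Epi (-1.05 ± 0.37, limma adjusted p = 0.0433), and its tissues overlapped widely. Pola1 and Rpa2 did not overlap, and Pcna and Pold3 did. Just outside the threshold stood Fen1 (limma adjusted p = 0.0502) and Mcm8 (0.0529).

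By role, the members that passed were 2 of 6 MCM2-7 genes, 2 of 6 clamp and loader genes, 2 of 3 RPA genes, 1 of 6 firing factors, 1 of 4 primase and polymerase alpha genes and 1 of 5 polymerase delta and epsilon genes, and 0 of 6 ORC genes, 0 of 3 licensing factors, 0 of 2 other MCM genes and 0 of 2 lagging-strand genes. These counts stand beside 19.4% of all genes called lower, and groups this small give no result about a role. All 3 licensing genes had a positive change, beside 42.3% of all genes. Gmnn measured 182 and 226 FPKM in mKO, 207 and 160 FPKM in mHet and 189 and 194 FPKM in WT ExE, against 147 and 116, 125 and 175, and 181 and 119 FPKM in mKO, mHet and WT Epi (0.43 ± 0.21, limma adjusted p = 0.125). It overlapped between tissues. With median ratio scaling Gmnn passed as higher in ExE (log2 change 0.54, limma adjusted p = 0.0225), as it did without ExE mHet 2 (0.50, limma adjusted p = 0.0362).

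The number of calls varied with the libraries. It was 4 or 5 without either Epi WT, either ExE WT, either Epi mKO, Epi mHet a or ExE mKO 1, beside 26.9% to 29.7% of all genes called, and 29 without ExE mHet 1, beside 49.3% of all genes called, each time all lower in ExE. In WT alone 0 of 43 passed by limma, beside 12.2% of all genes, with 1 at an unadjusted p under 0.05 (22.8% of all genes), Gins2 (-1.08 ± 0.37, limma adjusted p = 0.0868). Pola1 (-0.65 ± 0.32), Mcm3 (-0.74 ± 0.37) and Rfc3 (-0.90 ± 0.46) followed, none overlapping. ExE mHet 2 and mKO 1, the libraries of highest Rn45s share in the table, had member medians of -0.92 and -0.58 against the table mean, beside -0.42 and -0.26 for all genes. Gins2, Mcm3 and Rfc3 stayed past the threshold in all 17 alternatives tried, the one without both these libraries included. Epiblast markers summed to 212 to 329 FPKM in ExE and 607 to 927 FPKM in Epi, and their part in the difference was not tested.

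**Figure D5:**
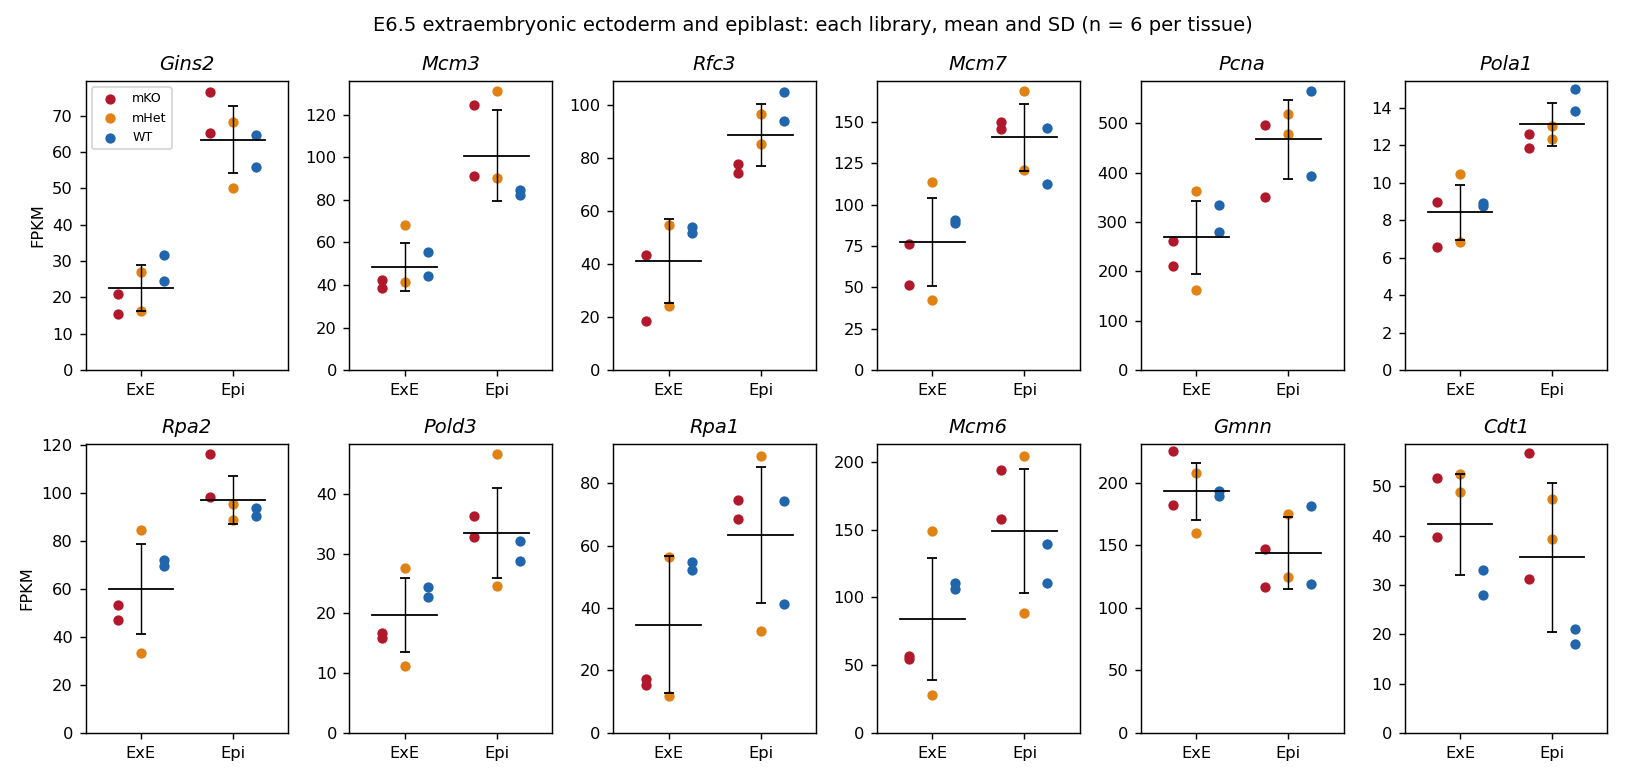
FPKM in each E6.5 library, ExE left and Epi right, coloured by genotype, with the mean (line) and SD (bar) of 6 libraries. The top row and Rpa2, Pold3 and Rpa1 are the 9 genes called lower in ExE; Mcm6, Gmnn and Cdt1 did not pass, and Cdt1 is lowest in WT in both tissues.

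Within the E6.5 tissues 0 of 43 genes passed in mKO against WT by limma, beside 0.00907% of all genes in Epi and 0% in ExE, and each had 1 gene with an unadjusted p under 0.05, beside 4.44% of all genes in Epi and 7.74% in ExE. In Epi this was Cdt1, the licensing factor that geminin holds in check, which measured 56.7 and 31.1 FPKM in mKO, 47.4 and 39.4 FPKM in mHet and 18.0 and 21.1 FPKM in WT. The log2 change was 1.07 ± 0.37 SE for mKO against WT and 1.11 ± 0.37 SE for mHet against WT (limma adjusted p = 1 in both). In ExE Cdt1 measured 51.6 and 39.6 FPKM in mKO, 52.4 and 48.9 FPKM in mHet and 28.0 and 32.9 FPKM in WT (0.56 ± 0.37 for mKO and 0.72 ± 0.37 for mHet against WT, limma adjusted p = 0.703 and 0.677). In both tissues the 4 mKO and mHet libraries lay above both WT libraries. The mKO and mHet comparisons share these WT libraries, and the mHet libraries also differ from part of them in Y-linked transcripts. In neither tissue did Gmnn follow, with log2 changes for mKO against WT of 0.08 ± 0.36 in ExE and -0.16 ± 0.36 in Epi. After Cdt1, the smallest p-values in Epi were those of Orc1 (0.63 ± 0.44), Gins3 (-0.50 ± 0.35) and Rpa3 (-0.48 ± 0.34).

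In ExE the gene was Rpa1, the largest subunit of the single-strand binding complex. Rpa1 measured 15.2 and 17.2 FPKM in mKO, 56.5 and 11.8 FPKM in mHet and 52.2 and 54.9 FPKM in WT ExE (mKO against WT -1.67 ± 0.63 SE, limma adjusted p = 0.564). Both mKO libraries and mHet 2 were low, and mHet 1 was with the WT libraries. Mcm8 (-0.96 ± 0.49), Rfc3 (-0.87 ± 0.46) and Orc5 (-1.08 ± 0.58) came next. In this comparison 39 of 43 changes were negative, with a median of -0.49 beside -0.19 for all genes, of which 33.2% were positive, and mKO 1 held 8.11% Rn45s. Markers differed too. Of 3 trophoblast giant cell markers, Hand1 measured 65.3 and 109 FPKM in mKO and 23.8 and 28.9 FPKM in WT ExE, while Prl3d1 and Prl2c2 were at 0 in both mKO libraries and in WT 1 and at 0.393 and 0.392 FPKM in WT 2. The 4 inner cell mass and epiblast markers summed to 5.08 to 5.65 FPKM in mKO and 12.0 to 81.5 FPKM in WT ExE. The primitive and visceral endoderm markers summed to 1.53 to 20.4 FPKM in mKO and at most 0.845 FPKM in WT ExE. The part of these markers in the difference was not tested. In mHet against WT ExE the gene under 0.05 was Rfc2, with 79.5 and 14.3 FPKM in mHet and 80.9 and 101 FPKM in WT (-1.38 ± 0.60, limma adjusted p = 0.677), and mHet 2, with 11.6% Rn45s, was the low library. Without mHet 1, 16 members passed as lower in mHet than in WT ExE, beside 23.9% of all genes called, and 3 as higher in mKO than in mHet ExE, beside 3.79%. That leaves mHet 2 alone in its group, and it is assumed to vary like the other groups. The difference of the mKO effect between ExE and Epi passed for 0 of 43 genes by limma (0% of all genes), with 1 at an unadjusted p under 0.05 (3.41% of all genes), Rpa1 (-2.03 ± 0.90, limma adjusted p = 0.972). Orc1 (-1.14 ± 0.62), Rfc5 (-1.69 ± 0.98) and Mcm6 (-1.44 ± 0.89) followed. Between mKO and mHet, the smallest p-values were those of Cdc45 (0.43 ± 0.37), Orc1 (0.42 ± 0.44), Cdc7 (0.33 ± 0.34) and Rfc5 (0.59 ± 0.70) in Epi and of Mcm3 (-0.39 ± 0.37), Rpa1 (-0.66 ± 0.63), Mcm4 (-0.51 ± 0.49) and Mcm8 (-0.46 ± 0.49) in ExE. In mHet against WT, Cdt1 was followed by Pole (0.37 ± 0.29), Rpa3 (-0.41 ± 0.34) and Mcm3 (0.38 ± 0.37) in Epi, and Rfc2 by Rfc5 (-1.44 ± 0.70), Orc5 (-1.19 ± 0.58) and Cdt1 in ExE.

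Promoter sequences were read for the genes whose tissue difference stayed past the threshold and that have an entry (Mcm3 and Rfc3), and for Mcm7, the next by p. That of Cdt1 was also read. It was the member of smallest unadjusted p by genotype in the epiblast, and it did not pass. They run from 250 bases before to 50 after the start of the gene (for Mcm7, the first of the listed starts) and come from RefSeq; 35 of the 43 genes had an entry. Capitals mark the E2F words TTTGGCGC, TTTCCCGC, TTTCGCGC and TTTGCCGC, or their reverse complement, which E2F factors, regulators of S-phase genes, are known to bind.
Mcm3 (GRCm38.p6, chr1:20820263-20820562, - strand): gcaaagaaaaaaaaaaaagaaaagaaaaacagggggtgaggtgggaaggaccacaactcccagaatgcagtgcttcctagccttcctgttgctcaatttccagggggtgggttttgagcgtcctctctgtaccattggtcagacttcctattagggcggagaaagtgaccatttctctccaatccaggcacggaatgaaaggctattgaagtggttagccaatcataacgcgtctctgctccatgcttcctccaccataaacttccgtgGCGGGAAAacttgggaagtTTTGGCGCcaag
Rfc3 (GRCm38.p6, chr5:151651159-151651458, - strand): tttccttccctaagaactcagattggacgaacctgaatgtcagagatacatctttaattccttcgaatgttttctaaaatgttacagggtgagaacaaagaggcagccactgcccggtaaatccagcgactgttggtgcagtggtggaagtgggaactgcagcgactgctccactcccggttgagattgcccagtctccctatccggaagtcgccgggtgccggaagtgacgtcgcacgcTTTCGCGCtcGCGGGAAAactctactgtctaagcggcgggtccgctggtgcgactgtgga
Mcm7 (GRCm38.p6, chr5:138171834-138172133, - strand): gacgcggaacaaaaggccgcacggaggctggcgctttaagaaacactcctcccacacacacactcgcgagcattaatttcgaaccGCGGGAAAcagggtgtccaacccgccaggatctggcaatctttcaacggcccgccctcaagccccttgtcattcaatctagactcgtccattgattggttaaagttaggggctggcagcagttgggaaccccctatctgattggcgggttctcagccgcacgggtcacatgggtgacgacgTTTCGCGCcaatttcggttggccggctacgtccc
Cdt1 (GRCm38.p6, chr8:122567765-122568064, + strand): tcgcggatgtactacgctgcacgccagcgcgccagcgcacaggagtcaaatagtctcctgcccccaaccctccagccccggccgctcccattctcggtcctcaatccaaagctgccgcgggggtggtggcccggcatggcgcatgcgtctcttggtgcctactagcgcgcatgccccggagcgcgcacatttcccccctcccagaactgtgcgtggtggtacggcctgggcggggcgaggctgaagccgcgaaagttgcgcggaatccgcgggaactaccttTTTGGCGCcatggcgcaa

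Mcm3, Rfc3 and the printed start of Mcm7 each held 2 such words and Cdt1 held 1; the second listed start of Mcm7 held 0. Of the 35 genes 16 held at least 1 on either strand (45.7%), beside 704 of 27025 genes in the table (2.6%). The CCAAT box, CCAAT on either strand, was in 62.9% of the genes and 41.1% of all promoters, and TTTGAA, the core of the cell cycle element CHR, in 17.1% and 20.2%. The NRF1 motif was in 2.86% and 1.07%. Median GC content was 63.3% over the 35 promoters and 53.3% over all, and a match is a description, not a bound site. Among the 9 genes lower in ExE, Pcna, Rpa1 and Rpa2 held no E2F word, Mcm3, Mcm7, Rfc3, Pola1 and Pold3 held at least 1, and Gins2 had no entry. Cdt1, which was not lower in ExE, held one too, as did Orc1 and Cdc6.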

How the data were processed

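Smart-seq2 libraries of mouse oocytes and embryos were deposited as FPKM tables made by the authors, 8 in all; depth is unknown. The submitters' processing notes name HISAT2 2.2.1, HTSeq 0.6.0 and Trim Galore 0.4.2, with no roles; the tool that made the FPKM, the annotation and whether counting used strand are unstated. Samples were grouped by their labels. Of 68 libraries, 67 were used, since 2 mHet libraries at E4.25 held identical values. Gene names that a spreadsheet had turned into dates were left out.

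Each gene with 2 or more libraries reaching 1 FPKM in its table entered a limma 3.58.1 fit (R 4.3.3; lmFit, eBayes with trend, two-sided) on log2(FPKM + 1), with 1 mean per group and Benjamini-Hochberg adjustment over all genes kept, in 26 comparisons. Fold changes on this scale understate the change of low genes. The fit was tested on simulated data with the per-gene spread of some of these comparisons. The simulated noise was independent between genes, with no shift shared by all genes of a library. Real E4.25 libraries held such shifts, with all-gene median deviations from -0.70 (WT 3) to 0.78 (mKO 2). The rates below therefore need not hold for the real libraries. A log2 change of 1 was recovered for 5.97% of changed genes at E4.25, 8.96% in oocytes and 20.9% in late 2-cell embryos (KO or mKO against WT). It was recovered for 61.2% between the E6.5 tissues. A change of 2 was recovered for 25.4% in oocytes and 44.8% at E4.25. False calls made up 4.14% to 9.38% of the simulated calls, most between tissues. A lack of calls therefore does not show that no member changed. The 43 members, the role groups and the lists were chosen with earlier results of these data known. Members named in a comparison were those past 0.05 and, where fewer than 4 passed, the 4 of smallest p; for levels, in each role group those of highest and lowest mean and of largest ratio between WT medians, with Pcna, Gmnn, Cdt1, Cdc6 and Pola1 always. Alternatives were a pseudocount of 0.1, no filter, median ratio scaling, Rn45s removed, the compared groups alone, a replicate block, the place in the sample list as a term, and each library left out. The tissue comparison of other replication genes is not reported here.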

Additional observations from a re-analysis of the deposited data

Results flagged for a closer look

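The unit examined was 1 gene, or the summed members, in 1 genotype group of 4 or 5 libraries. Of 48 such sets of values, 6 held a library far from the others of its group by Dixon's criterion. Chance meets it in about 1 set in 20 where sets are independent. These sets share libraries, and the sums share genes with the rest, so that rate cannot be set against the 6. Pcna measured 36.0 FPKM in E4.25 mKO 2, against 8.03 to 11.8 FPKM in the other mKO libraries. In the second E3.5 table WT 7 stood above the other WT libraries for Pcna, at 74.7 FPKM against 14.3 to 28.6 FPKM, for Gmnn, at 129 FPKM against 30.5 to 58.7 FPKM, and for the summed members, at 647 FPKM against 229 to 341 FPKM. There Pola1 measured 19.3 FPKM in WT 6, against 6.98 to 10.5 FPKM in the other WT libraries, and 13.4 FPKM in mHet 7, against 5.11 to 6.28 FPKM in the other mHet libraries.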

How the results depend on the processing

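The 4 calls at E4.25 became 0 with a pseudocount of 0.1, with no filter on low values, with median ratio scaling, with Rn45s removed, and with median ratio scaling and no WT library 3 (added after seeing the data); 7 with the place in the sample list as a term; and 0 to 7 when 1 library was left out. With the replicate block they were 10. A check of same-numbered libraries, mKO or KO with WT, did not settle whether the numbers pair the samples. Correlations at E4.25 were 0.0586, 0.0875, 0.14 and 0.101, and mKO 2 matched WT 1 best. They were 0.557 in 1-cell and 0.213 in late 2-cell embryos and 0.571 in the first E3.5 table. In these each library matched its own number best. In oocytes they were 0.588 and -0.332, in 8-cell embryos 0.303 and -0.174, and in ExE -0.00499. In the second E3.5 table they ran from -0.406 to 0.701. The block changed no other count of members, and Epi columns allowed no block. The 9 calls between tissues became 16 with median ratio scaling (15 lower, 1 higher) and 4 to 29 when 1 library was left out. In WT alone the count was 1 with median ratio scaling (Gins2, -1.14). Leaving out 1 library gave 0 to 14 calls for mHet against WT in the first E3.5 table, 0 to 16 for mHet against WT and 0 to 3 for mKO against mHet in ExE. In oocytes, leaving out 1 library moved Rpa1 between -0.11 and 1.04 in KO against WT and between -0.16 and 0.99 in Het against WT (lowest without WT 1, highest without WT 2), and Orc4 in KO against WT between -0.93 without WT 1 and 0.18 without WT 2, with 0.029 without KO 1. The cause was not tested. Depth is unknown, so differences between values near 0 cannot be judged.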
